A study of Rattus norvegicus with 23 samples.

Results

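The miR-344 family was followed in small RNA libraries of rat PC12 cells, a line from a tumour of adrenal chromaffin cells that has both endocrine and neuronal traits. Its members were all entries of the sRNAbench count table whose name starts with rno-miR-344, which gave 5 of the 413 entries in the table: rno-miR-344b-1-3p, rno-miR-344a-3p, rno-miR-344b-5p, rno-miR-344b-3p and rno-miR-344i, named without the rno prefix from here on where no confusion arises. In the α1ACT line the cells had been transfected with a pcDNA3 vector for α1ACT, a transcription factor encoded by the calcium channel gene CACNA1A, here with 11 glutamine repeats and a Flag tag at its C-terminus. In the vector line they carried pcDNA3 without an insert. The count tables name their columns WT and control; WT was read as the α1ACT line and control as the vector line, and the direction of every difference between the lines rests on this reading. Both lines had been selected with G418 as stable clones, and the sources used here do not give the number of clones behind a line, so a difference between the lines and a difference between clones cannot be told apart. The times of collection, counted from splitting, were 6 h, 24 h, 3 d and 10 d. Each group of 1 line and 1 time had 3 libraries, except vector at 6 h with 2, and the total was 23. The study asked which miRNAs α1ACT acts through.

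A miRNA is cut from a hairpin transcript, and either arm of the hairpin, named 5p and 3p, can give the mature strand that is loaded into an Argonaute protein. The bases 2 to 8 of the mature strand, its seed, pair with target messages, so that a change in the seed changes the set of possible targets. The miR-344 family was described in rat neurons, and its members are known from rodent brain. RefSeq lists 7 family hairpin genes in rat (assembly GRCr8), all on the minus strand of chromosome 1. Between the outermost of them the gene table holds 8 long non-coding RNA genes, the 7 hairpins and 1 pseudogene, and 0 protein-coding genes.

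The mature sequences of the 5 members, from RefSeq on GRCr8, show which entries share a seed and which could be mistaken for each other in counting. They are written 5′ to 3′ with the seed in capitals. Of the 5, 4 were matched by name, and miR-344a-3p was matched to the 3p strand of Mir344-1, which carries the synonym rno-mir-344a-1.
miR-344b-1-3p, chr1:124035684-124035705, minus strand: gAUAUAACcaaagcccgacugu
miR-344b-3p, from Mir344b-2 at chr1:124028508-124028529 and Mir344b-3 at chr1:124044539-124044560, minus strand: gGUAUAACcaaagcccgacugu
miR-344a-3p, chr1:124718769-124718791, minus strand: uGAUCUAGccaaagccugaccgu
miR-344i, chr1:124838130-124838151, minus strand: cUCUAGCCagggcuugacugca
miR-344b-5p, here from Mir344b-1 at chr1:124035725-124035746, minus strand: aGUCAGGCugcugguuauauuc

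No seed was shared between any of the 5 members. miR-344b-1-3p and miR-344b-3p differed at a single base, A2G (miR-344b-1-3p has the first letter, position 2 counted from its 5′ end), which lies in the seed. Because of this near-identity, reads of these 2 entries could be split between them by the counting, and the level of miR-344b-3p is uncertain. The 5p strand gave no such distinction: miR-344b-5p is the same in all 3 of the hairpins Mir344b-1, Mir344b-2 and Mir344b-3, so its reads could come from any of them, and those of miR-344b-3p from either of the identical hairpins Mir344b-2 and Mir344b-3. Behind its different seed miR-344a-3p shared the run ccaaagcc with both 3p strands of miR-344b. The hairpin Mir344a-2, for which RefSeq lists only the mature strand rno-miR-344a-5p, holds the miR-344a-3p sequence apart from a base near its 3′ end. Reads counted as miR-344a-3p could therefore come from Mir344a-2 as well.

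The hairpin Mir344b-1 carries both of the entries on which the results below turn, and it is printed with the 5p strand and then the 3p strand in capitals.
Mir344b-1, chr1:124035661-124035758, minus strand: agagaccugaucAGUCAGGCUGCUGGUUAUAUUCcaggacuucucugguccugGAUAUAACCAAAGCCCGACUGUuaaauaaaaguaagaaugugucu
In the RefSeq table used here, miR-410-3p was the only other rat miRNA with the seed of miR-344b-1-3p, and it had 0 counts in the sRNAbench table and 2 in a second table of the same libraries. The seed of miR-344b-5p was shared with miR-344g, another strand of the family, which was not analysed here.

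The 23 libraries held between 448557 (vector 3 d, replicate 1) and 5070120 counts (α1ACT 10 d, replicate 1), and 269 of the 413 entries had enough counts to be tested. Of 9 listed neuroendocrine entries, miR-375-3p averaged 146795 CPM (read counts relative to the library total, TMM-scaled), miR-182 31338 CPM and miR-183-5p 3928 CPM, while the other 6 were between 0 and 24.5 CPM. Of 5 listed neuronal miRNAs, miR-124-3p averaged 0.0476 CPM, miR-9a-5p 34.2 CPM and the other 3 between 987 and 1419 CPM, with a sum of 3402 to 4155 CPM in the α1ACT libraries and 3300 to 3867 CPM in the vector libraries. The summed level of 5 blood miRNAs was at most 9.96 CPM in a library. The summed level of mesenchymal and endothelial miRNAs (4 of the 5 listed were in the table, and miR-145-5p was close to 0) had a median of 525 CPM (328 to 817) in the α1ACT line, against 890 CPM (424 to 1349) in the vector line, and its part in the results below was not tested. A second count table, made with Chimira, held the same libraries. For 21 of the 23 libraries the best match between the tables was under the same name. The exceptions were the second vector libraries of 6 h and of 10 d, each of which matched the name of the other. Levels and overlaps are given under the names as deposited, and most log2 fold changes that rest on this pair also with it exchanged or left out. Nothing in the labels says whether replicates were grown as separate cultures, and the p-values cover only the spread between these libraries, which may be technical.

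The family was dominated by a single strand. miR-344b-1-3p averaged 1069 ± 181 CPM over the 23 libraries (SD), which placed it 63rd of the 413 entries, and it took between 94.2% and 97.2% of the family's reads in every library. miR-344a-3p came next with 26.9 ± 5.52 CPM, followed by miR-344b-5p with 16.9 ± 4.91 CPM. The order of these 3 held in all libraries but 1: miR-344a-3p was above miR-344b-5p in 22 of 23, although their ranges, 17.0 to 36.0 and 8.56 to 27.8 CPM, overlapped. miR-344b-3p had 59 reads in all, found in 16 libraries, and miR-344i had 14 reads, found in 6. Those 2 entries did not pass the low-count filter, so 3 of the 5 members were tested in the sRNAbench table. Mature miRNAs are of about the same length, so CPM is comparable between them as a read level, but ligation and amplification can favour some sequences over others and were not corrected.

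**Figure D1:**
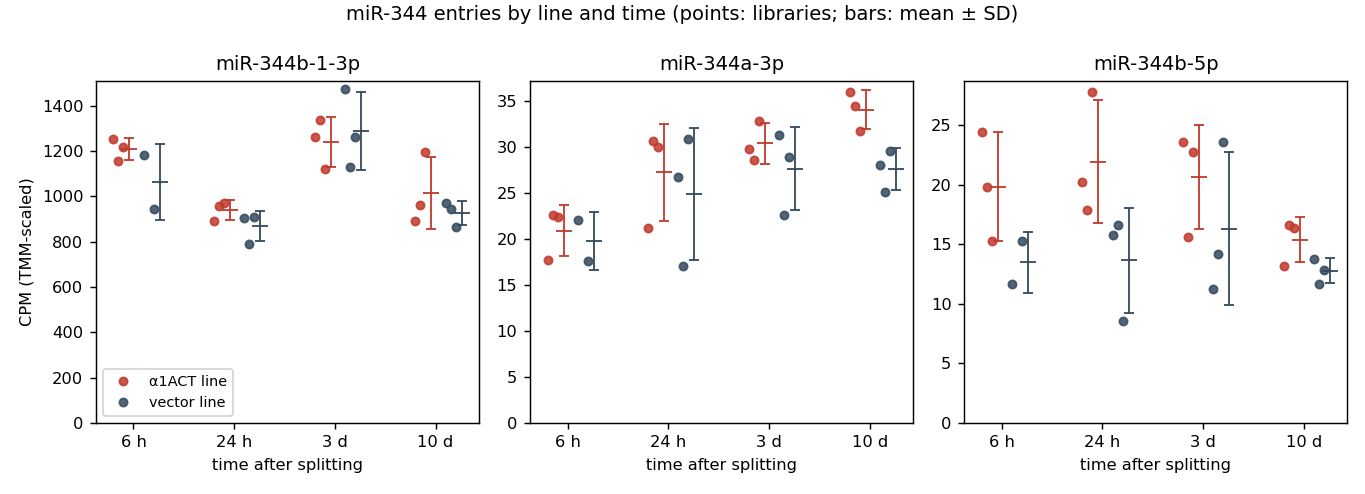
CPM (TMM-scaled, linear axes from 0) of the 3 tested miR-344 entries against time after splitting; each point is a library, red for the α1ACT line and dark grey for the vector line, with the mean ± SD of each group beside it. miR-344b-1-3p is higher at 3 d than at 24 h in both lines, miR-344a-3p stands highest in the α1ACT line at 10 d (31.8 to 36.0 CPM), and miR-344b-5p stands above the vector line at 6 h and 24 h.

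rno-miR-344b-5p, the 5p strand of the miR-344b hairpins, was the only one of the 3 tested members called between the lines, at the edge of the threshold. At 6 h it was at 24.4, 19.8 and 15.3 CPM in the α1ACT libraries, against 11.7 and 15.3 CPM in the vector libraries. At 24 h the α1ACT libraries had 20.3, 17.9 and 27.8 CPM, against 15.8, 16.6 and 8.56 CPM in the vector libraries. The groups did not overlap at either time, though at 6 h they were less than 0.1 CPM apart. Groups without overlap were found for 27.9% of the tested entries at 6 h and 17.1% at 24 h. At 3 d the α1ACT libraries had 23.6, 15.6 and 22.8 CPM, against 11.2, 14.2 and 23.6 CPM in the vector libraries, and at 10 d they had 13.2, 16.6 and 16.4 CPM, against 13.8, 11.7 and 12.8 CPM. At these later times the groups overlapped. The lowest vector value at 3 d rests on 5 reads in the shallowest library, with an exact Poisson 95% interval of 3.64 to 26.2 CPM, which covers counting error only. In all, 11 of the 12 α1ACT libraries lay above the vector mean of their time. For the uncalled miR-344a-3p 10 of 12 did so, and for the uncalled miR-344b-1-3p 9 of 12. The share over all tested entries was not computed.

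Over the 4 times rno-miR-344b-5p averaged 19.5 ± 4.41 CPM in the α1ACT line (n = 12) and 14.1 ± 3.91 CPM in the vector line (n = 11). The fitted log2 fold change was 0.43 (SE 0.145, 95% interval 0.13 to 0.72), a fold of 1.34, with an adjusted p of 0.0497 (quasi-likelihood test of edgeR, Benjamini-Hochberg adjustment over the 269 entries). It was the 34th and last of the calls, which made up 12.6% of the tested entries, 6.69% when calls higher in the α1ACT line are counted alone. The call is at the threshold. It was lost on leaving out any of 15 single libraries, with log2 fold changes of 0.37 to 0.47 and edgeR Benjamini-Hochberg adjusted p of 0.0511 to 0.123: α1ACT 6 h replicates 1 and 2, 24 h replicates 1 and 3, 3 d replicates 1 and 3 and 10 d replicates 2 and 3, and vector 6 h replicates 1 and 2, 24 h replicate 3, 3 d replicates 1 and 2 and 10 d replicates 2 and 3. With the doubtful pair of vector libraries exchanged, the log2 fold change was 0.45 (edgeR Benjamini-Hochberg adjusted p = 0.0625), and with both left out it was 0.47 (adjusted p = 0.108). It stayed positive in all 36 alternatives, between 0.34 and 0.53. These alternatives reuse the same libraries. The uncalled values of miR-344a-3p (0.11 to 0.26) and miR-344b-1-3p (0.0473 to 0.19) also stayed positive in all 36.

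**Figure D2:**
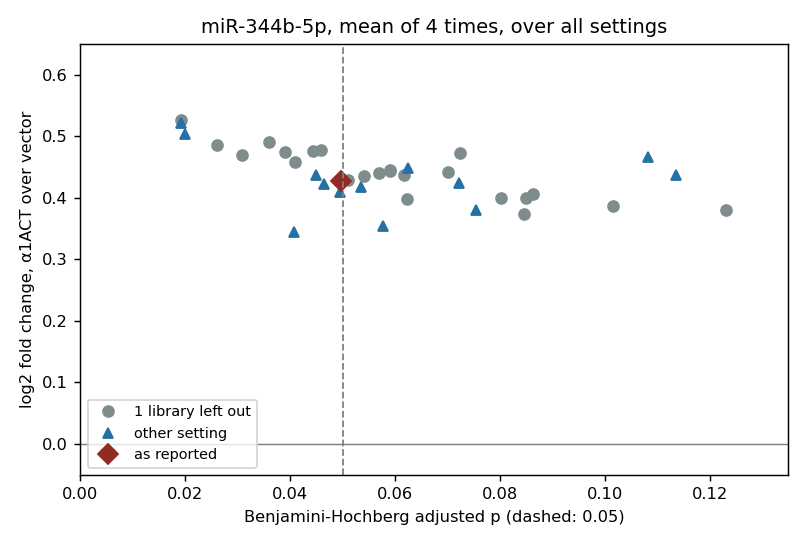
Fitted log2 fold change of miR-344b-5p, α1ACT over vector as the mean of the 4 times, against its adjusted p; the diamond is the reported fit, circles leave out a library each and triangles are other settings. All values lie above 0, between 0.34 and 0.53, and they fall on both sides of the dashed threshold of 0.05, with 14 of the 36 alternatives below it.

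At single times the log2 fold change of miR-344b-5p was 0.56 (SE 0.319) at 6 h, 0.65 (SE 0.279) at 24 h, 0.24 (SE 0.283) at 3 d and 0.26 (SE 0.275) at 10 d. With the doubtful pair exchanged it was 0.77 at 6 h and 0.13 at 10 d, and with both left out 0.73 and 0.23. The value at 3 d ran from 0.0743 (without vector 3 d replicate 2) to 0.63 (without vector 3 d replicate 3) when a library was left out, and that at 10 d was 0.40 without α1ACT 10 d replicate 1. None of the 4 values passed the threshold: by edgeR, the Benjamini-Hochberg adjusted p was 0.448 at the first time, then 0.437, 0.918 and 0.758. Few entries did so at a single time: the calls made up 0.0% of the tested entries at 6 h, then 0.372% at 24 h, again 0.372% at 3 d, and 1.49% at 10 d. At 6 h 30 entries had an unadjusted p under 0.05 by edgeR, DESeq2 called 3 and limma-voom 0. A change of the difference between the lines over time was not called either for miR-344b-5p, with an interaction p of 0.646 (edgeR, Benjamini-Hochberg adjusted p = 1.00). No entry at all was called for the interaction by edgeR (0.0% of 269), where 10 had an unadjusted p under 0.05, DESeq2 called 2 and limma-voom 0.

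The dominant strand of the family was not called between the lines. miR-344b-1-3p averaged 1101 ± 159 CPM in the α1ACT line and 1035 ± 204 CPM in the vector line. Its log2 fold change over the 4 times was 0.09 (SE 0.0606, 95% interval -0.03 to 0.22, edgeR Benjamini-Hochberg adjusted p = 0.337), again 0.09 with the doubtful pair exchanged and 0.0570 with both left out. For every 100 reads of miR-344b-1-3p there were 1.80 ± 0.470 reads of miR-344b-5p in the α1ACT libraries (n = 12) and 1.40 ± 0.415 in the vector libraries (n = 11), but the 5p strand also comes from 2 hairpins that do not give miR-344b-1-3p, so this is not the ratio of the arms of 1 hairpin, and the difference of the 2 entries was not tested. The precision differed between them. miR-344b-1-3p had a mean of 2709 reads per library, for which counting alone gives a coefficient of variation of 1.92%, whereas miR-344b-5p had 44.1 reads and a counting coefficient of variation of 15.1%. The spread between libraries beyond counting, as fitted by edgeR, was 10.6% for miR-344b-1-3p and 22.4% for miR-344b-5p.

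rno-miR-344a-3p, the strand with the seed GAUCUAG, averaged 28.2 ± 5.81 CPM in the α1ACT line and 25.5 ± 5.07 CPM in the vector line, with a log2 fold change over the 4 times of 0.17 (SE 0.113, 95% interval -0.06 to 0.40, edgeR Benjamini-Hochberg adjusted p = 0.348). It was 0.14 with the doubtful pair exchanged and 0.11 with both left out. At 10 d its libraries did not overlap between the lines, at 36.0, 34.5 and 31.8 CPM in the α1ACT line and 28.1, 25.1 and 29.6 CPM in the vector line. That held for 24.9% of the tested entries at 10 d, and the difference was not called (log2 fold change 0.31, SE 0.211, edgeR Benjamini-Hochberg adjusted p = 0.569; 0.43 with the doubtful pair exchanged, 0.27 with both left out).

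**Figure D3:**
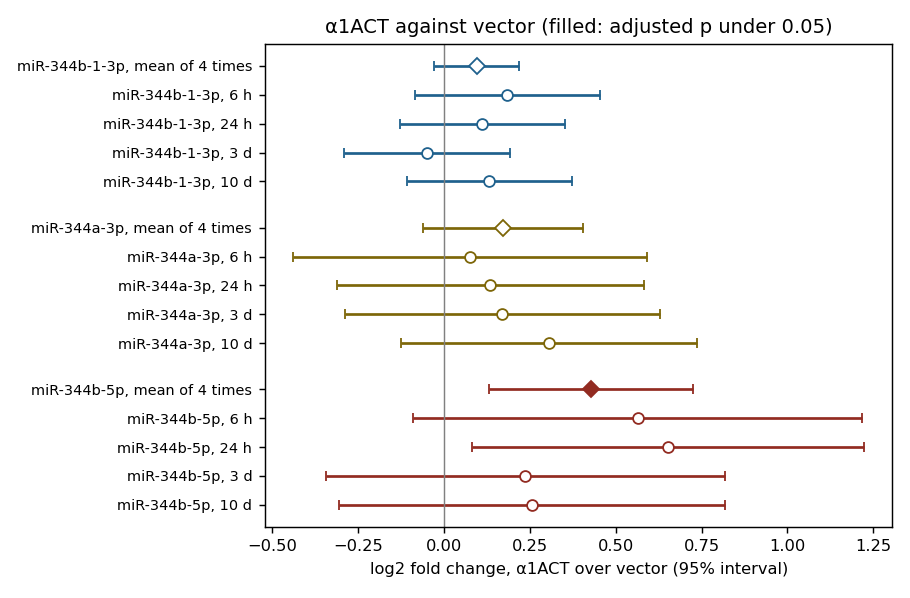
Log2 fold change, α1ACT over vector, of the 3 tested miR-344 entries as the mean of the 4 times (diamonds) and at each time (circles), with 95% intervals; filled symbols have an adjusted p under 0.05. The only filled symbol is the mean for miR-344b-5p at 0.43, and the intervals of miR-344b-1-3p are the narrowest, its mean being 0.09.

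With time after splitting, miR-344b-1-3p changed in both lines. In the α1ACT line its libraries had 1253, 1156 and 1218 CPM at 6 h, 889, 956 and 972 CPM at 24 h, 1261, 1339 and 1121 CPM at 3 d, and 891, 960 and 1195 CPM at 10 d. In the vector line its libraries had 1183 and 945 CPM at 6 h, 906, 791 and 911 CPM at 24 h, 1475, 1131 and 1261 CPM at 3 d, and 969, 945 and 865 CPM at 10 d. The 3 d libraries were thus high and the 24 h libraries low in both lines, and these groups did not overlap in either, as was so for 43.5% of the tested entries in the α1ACT line and 33.5% in the vector line. The F test of time, with 3 degrees of freedom, called it in the α1ACT line (edgeR, Benjamini-Hochberg adjusted p = 0.0137) and in the vector line (adjusted p = 0.00204). Time called 42.4% of the tested entries in the α1ACT line and 36.8% in the vector line, so a call here was common. With the doubtful pair left out the edgeR Benjamini-Hochberg adjusted p in the vector line was 0.00206, and with it exchanged 0.0106. In the α1ACT line the call was lost without α1ACT 24 h replicate 2 (edgeR, Benjamini-Hochberg adjusted p = 0.0517).

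Step by step, miR-344b-1-3p was higher at 3 d than at 24 h by a log2 fold change of 0.40 in the α1ACT line (SE 0.117, edgeR Benjamini-Hochberg adjusted p = 0.0137) and of 0.56 in the vector line (SE 0.119, adjusted p = 0.000904). These steps were called for 22.3% and 23.8% of the tested entries. At 24 h against 6 h the log2 fold change was -0.37 in the α1ACT line (edgeR, Benjamini-Hochberg adjusted p = 0.0428, where 10.4% were called) and -0.29 in the vector line (adjusted p = 0.351, where 1.12% were called), there -0.51 with the doubtful pair left out and -0.29 with it exchanged. At 10 d against 3 d it was -0.29 in the α1ACT line (edgeR, Benjamini-Hochberg adjusted p = 0.0566, where 32.7% were called) and -0.47 in the vector line (adjusted p = 0.00399, where 25.3% were called), there -0.52 with the pair left out and -0.47 with it exchanged, called both times. The rise at 3 d over 24 h in the vector line was called in all 37 alternatives. In the α1ACT line it was lost without 24 h replicate 1 (log2 fold change 0.36), 24 h replicate 2 (0.39) or 3 d replicate 2 (0.34), with edgeR Benjamini-Hochberg adjusted p of 0.0604 to 0.0723. The fall at 24 h against 6 h in the α1ACT line was lost in 11 of 37 alternatives, among them those without α1ACT 6 h replicate 1 or 3, α1ACT 24 h replicate 1 or 2, vector 24 h replicate 1, α1ACT 10 d replicate 2 or vector 10 d replicate 3 (log2 fold changes of -0.41 to -0.33, edgeR Benjamini-Hochberg adjusted p of 0.0503 to 0.180). The difference at 10 d against 3 d, not called in the α1ACT line, passed the threshold there without any of α1ACT 3 d replicate 3, vector 3 d replicate 1, vector 3 d replicate 2 or α1ACT 10 d replicate 3 (log2 fold changes of -0.43 to -0.29), and without the last of these the log2 fold change at 10 d against 6 h, -0.25 with all libraries, was -0.41 (edgeR, Benjamini-Hochberg adjusted p = 0.0196). No difference between the lines in this course was shown, with an interaction p of 0.570 (edgeR, Benjamini-Hochberg adjusted p = 1.00).

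The course of miR-344a-3p looked different, but it was not tested against that of miR-344b-1-3p. In the α1ACT line the libraries had miR-344a-3p at 17.7, 22.7 and 22.4 CPM at 6 h, 21.2, 30.6 and 30.0 CPM at 24 h, 29.8, 28.6 and 32.9 CPM at 3 d, and 36.0, 34.5 and 31.8 CPM at 10 d. All 10 d libraries were above all 6 h libraries, as they were in 42.0% of the tested entries in one direction or the other. At 10 d against 6 h the log2 fold change in the α1ACT line was 0.71 (SE 0.218, 95% interval 0.26 to 1.16), a fold of 1.63, with an edgeR Benjamini-Hochberg adjusted p of 0.0169. This comparison called 27.1% of the tested entries, and 11.2% were called higher at 10 d. It was lost without α1ACT 6 h replicate 1, where the log2 fold change was 0.59 (edgeR, Benjamini-Hochberg adjusted p = 0.0781), and held in the other 36 alternatives. The F test of time in the α1ACT line stood at the threshold (edgeR, Benjamini-Hochberg adjusted p = 0.0513) and passed it in 19 of 37 alternatives.

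In the vector line the libraries had miR-344a-3p at 22.0 and 17.6 CPM at 6 h, 26.8, 17.0 and 30.9 CPM at 24 h, 31.4, 22.6 and 28.9 CPM at 3 d, and 28.1, 25.1 and 29.6 CPM at 10 d. The 10 d libraries were again above those of 6 h, as in 45.0% of the tested entries in one direction or the other, but the log2 fold change of 0.48 (SE 0.247) was not called (edgeR, Benjamini-Hochberg adjusted p = 0.236), where 11.9% of the entries were. It was 0.0992 with the doubtful pair exchanged, when the 6 h and 10 d libraries overlap, and 0.26 with both left out. The interaction p of 0.902 (edgeR, Benjamini-Hochberg adjusted p = 1.00) does not show that the lines differ in this.

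miR-344b-5p showed no called change with time. The edgeR Benjamini-Hochberg adjusted p of the F test was 0.352 in the α1ACT line and 0.559 in the vector line. At 10 d against 6 h the log2 fold change was -0.38 in the α1ACT line (95% interval -0.95 to 0.18) and -0.07 in the vector line (95% interval -0.72 to 0.57), which turned to 0.25 with the doubtful pair exchanged and 0.0609 with both left out. The levels of the 3 tested members, which lie within the same stretch of chromosome 1, were weakly correlated: over the 23 libraries the Pearson correlation of their log2 CPM was 0.0877 between miR-344a-3p and miR-344b-1-3p, -0.104 between miR-344a-3p and miR-344b-5p, and 0.179 between miR-344b-1-3p and miR-344b-5p. These values describe libraries that share lines and times, and the counting error of the rarer entries was not removed.

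The rare members depended on the counting. miR-344b-3p, which differs from the dominant strand by the seed base given above, had 54 reads in the sRNAbench table and 426 in the Chimira table over the 21 libraries named alike, 7.89 times as many. miR-344i had 14 and 119 reads, 8.50 times as many. The abundant miR-344b-1-3p differed little, at 57459 and 57835 reads, as did miR-344a-3p at 1519 and 1703 reads. miR-344b-5p was in between, at 947 and 1206 reads. The sRNAbench table holds no value of 1, while the Chimira table holds 1160 of them, so that a 0 in the sRNAbench table need not mean that no read was seen. In the Chimira table miR-344b-3p had 0.740 ± 0.180 reads for every 100 of miR-344b-1-3p (SD over 23 libraries). That table also lists miR-344a-5p, with 5 reads in 5 libraries, and so has 6 family entries of 627, of which 5 were tested.

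**Figure D4:**
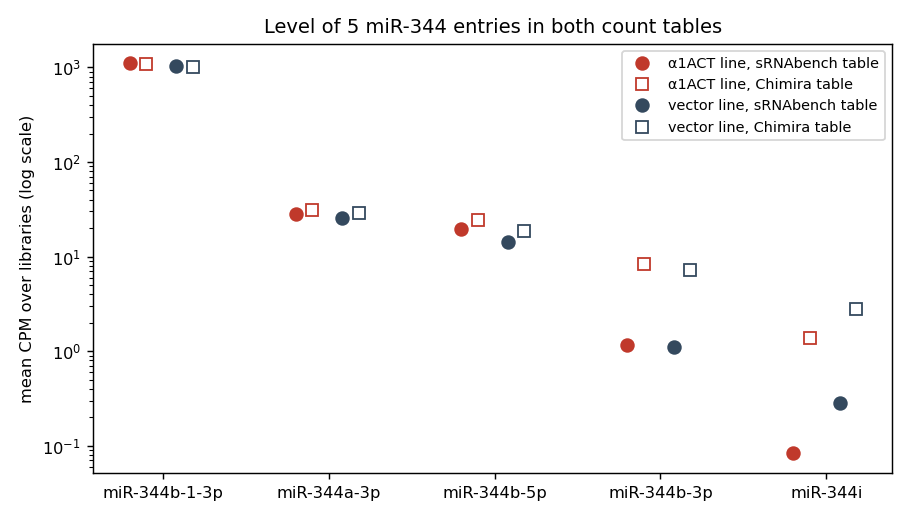
Mean CPM over the libraries of each line (log axis) for the 5 miR-344 entries, α1ACT in red and vector in dark grey; filled circles are the sRNAbench table and open squares the Chimira table. Both tables place miR-344b-1-3p, miR-344a-3p and miR-344b-5p at nearly the same level, while miR-344b-3p and miR-344i are several times higher in the Chimira table.

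In the sRNAbench table miR-344b-3p had 3, 2 and 5 reads in the α1ACT libraries and 0 and 2 in the vector libraries at 6 h, 5, 0 and 4 against 0 in each vector library at 24 h, 6, 3 and 2 against 2, 4 and 6 at 3 d, and 0, 2 and 0 against 5, 3 and 5 at 10 d. These counts, not scaled for depth, are too low to order the lines. In the Chimira table the entry averaged 8.32 ± 2.47 CPM in the α1ACT line (n = 12) and 7.22 ± 1.71 CPM in the vector line (n = 11), with a log2 fold change over the 4 times of 0.24 (SE 0.180, edgeR Benjamini-Hochberg adjusted p = 0.444). By time the Chimira log2 fold change of miR-344b-3p was 0.18 at 6 h (-0.0223 with the doubtful pair exchanged), 0.35 at 24 h, 0.26 at 3 d and then 0.16 at 10 d (0.28 exchanged), all uncalled.

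miR-344i had 2 or 4 reads in each of the 6 libraries where the sRNAbench table lists it, 2 of them α1ACT and 4 vector libraries. In the Chimira table it averaged 1.39 ± 0.779 CPM in the α1ACT line and 2.83 ± 1.60 CPM in the vector line. The log2 fold change over the 4 times was -0.87 (SE 0.311), which was not called (edgeR, Benjamini-Hochberg adjusted p = 0.0986), nor was it with the pair of vector libraries exchanged (-0.89, adjusted p = 0.0564). By time it was -1.19 at 6 h and -1.13 at 24 h, and -1.67 at 3 d but 0.51 at 10 d. The values at 6 h and 10 d rest on the doubtful pair and are given under the deposited names only. At 3 d the α1ACT libraries had 5, 2 and 0 Chimira reads, and at 10 d the vector libraries had 6, 3 and 3. Such counts are too low to order the lines at a single time. The largest Chimira value was 16 reads, in vector 3 d replicate 3.

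Among the 219 other tested entries with at least 10 CPM, those whose log2 CPM followed miR-344b-1-3p most closely over the 23 libraries were miR-132-3p (Pearson r = 0.759), a miRNA induced through CREB, miR-760-3p (0.746) and miR-25-5p (0.742). For miR-344a-3p they were miR-93-5p (0.770), let-7g-5p (0.695) and miR-497-5p (0.694). For miR-344b-5p they were miR-181a-5p (0.595), miR-542-5p (0.497) and let-7c-5p (0.482). Over the 8 group means the closest were miR-140-3p to miR-344b-1-3p (0.958), miR-1839-5p to miR-344a-3p (0.895) and miR-298-5p to miR-344b-5p (0.789). Of the 3 closest entries, miR-760-3p and miR-25-5p for miR-344b-1-3p, let-7g-5p for miR-344a-3p and let-7c-5p for miR-344b-5p were on both lists.

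A list of brain-enriched miRNAs, without the miR-344 family, was set beside the family. The list was written with earlier results of these data known, and both arms of a hairpin count as separate entries. Its counts are therefore a description and not a test. Of its 31 entries with a row there, 22 were tested. By edgeR, averaged over the 4 times, 3 were called higher in the α1ACT than in the vector line and 0 lower. Of all 269 tested entries, 18 were called higher (6.69%) and 16 lower (5.95%). The 3 called members were miR-9a-5p, a miRNA of neural progenitors (log2 fold change 0.70), miR-129-5p (0.49) and miR-138-5p, a miRNA of dendrites (0.23). At an unadjusted p under 0.05, 7 of the 22 were higher and 0 lower, where 28.6% of all entries passed in either direction. That share counts both directions together, and the share of all entries higher alone was not computed. DESeq2 called 4 higher and 0 lower (of all 269, 19 higher and 22 lower). By limma-voom 2 were higher and 0 lower (of all 269, 14 higher and 15 lower). In all, 18 of the 22 had a positive log2 fold change, against 50.2% of all entries, and their median was 0.14, against 0.00 over the 269 tested entries. The positive count was 17 of 22 by DESeq2, 16 of 22 by limma-voom and 21 of 22 with upper-quartile scaling. It was 16 of 24 by Chimira counts and 17 of 23 with the doubtful pair left out. In these settings 47.6% to 68.0% of all entries were positive. Other abundant members of the list did not pass the threshold, among them miR-128-3p (-0.05) and miR-218a-5p (0.02). By Chimira counts, 1 of 24 tested members was called higher and 0 lower, with a median of 0.09. Of all 305 entries tested there, 8 were called higher and 11 lower. With the doubtful pair of vector libraries left out, 2 of 23 were called higher and 0 lower, with a median of 0.0973. Of all 278 entries tested then, 8 were called higher and 8 lower. The log2 fold change of miR-344b-5p in the sRNAbench table, 0.43, was above these medians, and those of miR-344a-3p (0.17) and miR-344b-1-3p (0.09) were close to them.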

How the data were processed

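Libraries were made from a miRNA-enriched RNA fraction by an Illumina protocol for small RNA, per the labels' protocols. The authors deposited 2 tables of raw read counts per mature miRNA, not normalized, whose names point to sRNAbench (413 entries, used throughout) and Chimira (627 entries, an alternative). edgeR is named per the submitters' processing notes. The genome build, miRBase release, aligner and tool versions are not given in these sources. The WT columns were assumed to be the α1ACT line and the control columns the vector line, because the α1ACT glutamine repeat is of normal length. Of each table, 12 columns that match no sample were not used. An unnamed entry holding 0 counts, 0% of the total, was left out.

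The main analysis ran in R 4.3.3 with edgeR 4.0.16: filterByExpr, TMM scaling, robust quasi-likelihood fits with 1 mean per group over 23 libraries, Benjamini-Hochberg adjustment over the 269 tested entries and calls at an adjusted p under 0.05. Standard errors come from the log2 fold change and its F value. Steps were tested on simulated data. Pearson correlations used log2 CPM with a prior count of 2. Reads carry no molecular identifiers. The exact Poisson interval covers counting error only, whereas the intervals of log2 fold changes also cover the spread between these libraries. Alternatives were DESeq2 1.42.0, limma-voom (limma 3.58.1), the Chimira table, 2 further filters on low counts, 3 further scalings, a replicate block, the groups compared alone, the doubtful pair of libraries exchanged or left out, and each library left out. Chosen after seeing the data were the Chimira table with that pair exchanged, and leaving out the pair with the shallowest library.

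Members, lists and tests were chosen with earlier results of these data known. All members are named. For likeness, the 3 closest entries with at least 10 CPM were named. Of the brain list, the called members and 2 abundant uncalled ones were named. Sequences are from RefSeq (GRCr8). Gene order came from a table of that assembly.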

Additional observations from a re-analysis of the deposited data

How the results depend on the processing

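Over 36 results and 1326 alternatives, direction and side of the threshold were kept in 1238, a call was lost in 42 and gained in 29, and the sign turned in 17. The causes were not tested. The call of miR-344b-5p over the 4 times had log2 fold changes of 0.35 in the Chimira table as deposited, 0.42 with no low-count filter, 0.38 with limma-voom, 0.42 with a replicate block, 0.45 with the pair exchanged, 0.47 with the pair left out and 0.44 with the shallow library left out too, none of them called (edgeR or limma, adjusted p 0.0535 to 0.114). In the Chimira table with the pair exchanged it was called, at 0.34 (edgeR, Benjamini-Hochberg adjusted p = 0.0408). The call also held with RLE scaling, upper-quartile scaling, library totals, the stricter filter and DESeq2. Without a replicate the log2 fold change ran from 0.37 to 0.53. For miR-344a-3p the F test of time in the α1ACT line gained the call with RLE scaling (adjusted p = 0.0404), the stricter filter (0.0250), DESeq2 (0.0265), limma-voom (0.0301), the replicate block (0.0352), the groups compared alone (0.0268), the Chimira table with the pair exchanged (0.0360) and the pair and shallow library left out (0.0497), and without a replicate it ran from 0.0284 to 0.160. Its difference between the lines at 6 h turned to -0.16 (Chimira), -0.18 (exchanged), -0.12 (pair left out) and -0.11 (shallow library too), and ran from -0.10 to 0.24 without a replicate; at 24 h that range was -0.0524 to 0.31, and for 10 d against 6 h in the α1ACT line 0.59 to 0.77. For miR-344b-1-3p upper-quartile scaling took the F test of time to adjusted p of 0.0596 (α1ACT; 0.00282 to 0.0517 without a replicate) and 0.0529 (vector), 24 h against 6 h in the α1ACT line to -0.41, 3 d against 24 h there to 0.27, and 10 d against 3 d in the vector line to -0.24, all uncalled. Under that scaling the median of all entries was -0.14 at 3 d against 24 h in both lines and 0.25 at 10 d against 3 d in the vector line (shifts of -0.13, -0.10 and 0.24), and relative to these medians the values were 0.41, 0.60 and -0.49. The step at 24 h in the α1ACT line was also uncalled in the Chimira table (-0.37), with library totals (-0.36) and with the pair exchanged (-0.37), and ran from -0.43 to -0.33 without a replicate; the step to 3 d ran from 0.34 to 0.47. At 10 d against 3 d the α1ACT line gained the call with limma-voom (-0.30), the replicate block (-0.29), the groups compared alone (-0.29), the pair left out (-0.31) and the shallow library too (-0.29), with a range of -0.43 to -0.20 without a replicate; 10 d against 6 h ran from -0.41 to -0.16. Uncalled line differences of miR-344b-1-3p turned to -0.0141 at 6 h (pair left out) and, at 3 d, to 0.0339 (upper quartile) and 0.0381 (pair and shallow library left out), with -0.14 to 0.0524 without a replicate. Uncalled miR-344b-5p at 10 d against 6 h in the vector line turned to 0.00137 (Chimira), 0.10 (upper quartile), 0.25 (exchanged), 0.0609 (pair left out) and 0.11 (shallow library too), with -0.31 to 0.0619 without a replicate. Replicate numbers gave no sign of pairing on average, and pairing within some groups was not tested. Same-numbered libraries had a mean correlation of 0.0181 (77 pairs, -0.683 to 0.734), against -0.0088 for other numbers (154 pairs). The replicate block gave 38 calls between the lines, where 34 were reported. Calls between the lines numbered 19 in the Chimira table, 18 with the pair exchanged, 16 with it left out, 14 with the shallow library too, 23 with no filter, 41 with library totals and 48 with upper-quartile scaling, the last splitting into 43 higher and 5 lower. With upper-quartile scaling 7 of the brain-enriched list were called higher, with a median of 0.22 against 0.09 over all entries. miR-344b-5p had a mean of 44.1 reads per library, and the part of depth in its uncertain call was not tested. miR-344b-3p and miR-344i were tested in the Chimira table only.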
